A study of Mus musculus with 12 samples.

Results

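The genes described here encode the subunits, regulators and assembly factors of the proteasome. They were taken as all mouse protein-coding genes whose symbols start with Psma, Psmb, Psmc, Psmd, Psme, Psmf or Psmg, which gave 51 of 21900 protein-coding genes in the RefSeq annotation of mm10 (GRCm38). By textbook role 8 belong to the alpha rings of the core, 8 to its beta rings, 6 to the ATPases and 11 to the other subunits of the 19S regulator, 5 to the immunoproteasome, 4 to other regulators and 7 to assembly factors. The remaining 2, Psmc3ip and Psme3ip1, match the symbols but encode no part of the proteasome. The mark H3K79me2, dimethylation of histone H3 that the methyltransferase DOT1L deposits, was mapped in CD8 T cells of male mice by ChIP-seq, which sequences the DNA pulled down with an antibody to the mark. The cells were grown for 8 days with EPZ-5676 or SGC-0946, which inhibit DOT1L, or with the vehicle DMSO at 0.1%. Both inhibitors are labelled as 10 mM, a unit that is doubtful for cultured cells. All cells came from animals labelled wild type for CreERT2 and for the floxed DOT1L allele and heterozygous for the OT-I T cell receptor transgene, and all were activated through CD3 and CD28. Each treatment had 2 immunoprecipitated and 2 input libraries, and 1 list of broad peaks per treatment was used, so no value below has a spread between replicates and none has a test across samples. The age of the mice is not given in the sources used here.

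The proteasome degrades proteins tagged with ubiquitin. Its barrel-shaped 20S core is built of alpha rings, which gate the entry, and beta rings, which hold the proteolytic sites, and the 19S regulator on its end recognises, unfolds and feeds in the substrate. Interferon gamma, a cytokine of activated CD8 T cells, induces the immunoproteasome, in which other catalytic subunits replace the standard ones and which favours the cutting of peptides for presentation on MHC class I. H3K79me2 is known as a mark of transcribed genes and lies mostly over the first part of the gene body.

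Genes counted as marked if a peak shared 1 or more bases with the annotated interval. With EPZ-5676, 30 of the 51 genes had a peak (58.8%), with SGC-0946 0 of 51 had one, and with DMSO 46 of 51 had one (90.2%). The share over all protein-coding genes was 15.9% with EPZ-5676, 0.142% with SGC-0946 and 34.5% with DMSO. Every proteasome gene with an EPZ peak was also marked in DMSO, as were all 3486 protein-coding genes with an EPZ peak. Thus 30 of the 46 DMSO-marked proteasome genes (65.2%) had an EPZ peak, against 46.1% of all 7563 DMSO-marked genes. Requiring a −log10 q of at least 5 of every peak turned this last comparison round, with 11 of 33 DMSO-marked proteasome genes (33.3%) against 44.1% of all DMSO-marked genes. Under that rule EPZ peaks marked 7.68%, SGC peaks 0.0228% and DMSO peaks 17.3% of all protein-coding genes. Fold enrichment here is the authors' ratio over background for the highest peak in a gene and is read within its own list. In the DMSO list it ran from 2.76 at Psmd9 to 9.75 at Psmb8 and Psmb9, with a median of 5.30, against a median of 4.47 over all DMSO-marked genes.

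**Figure D1:**
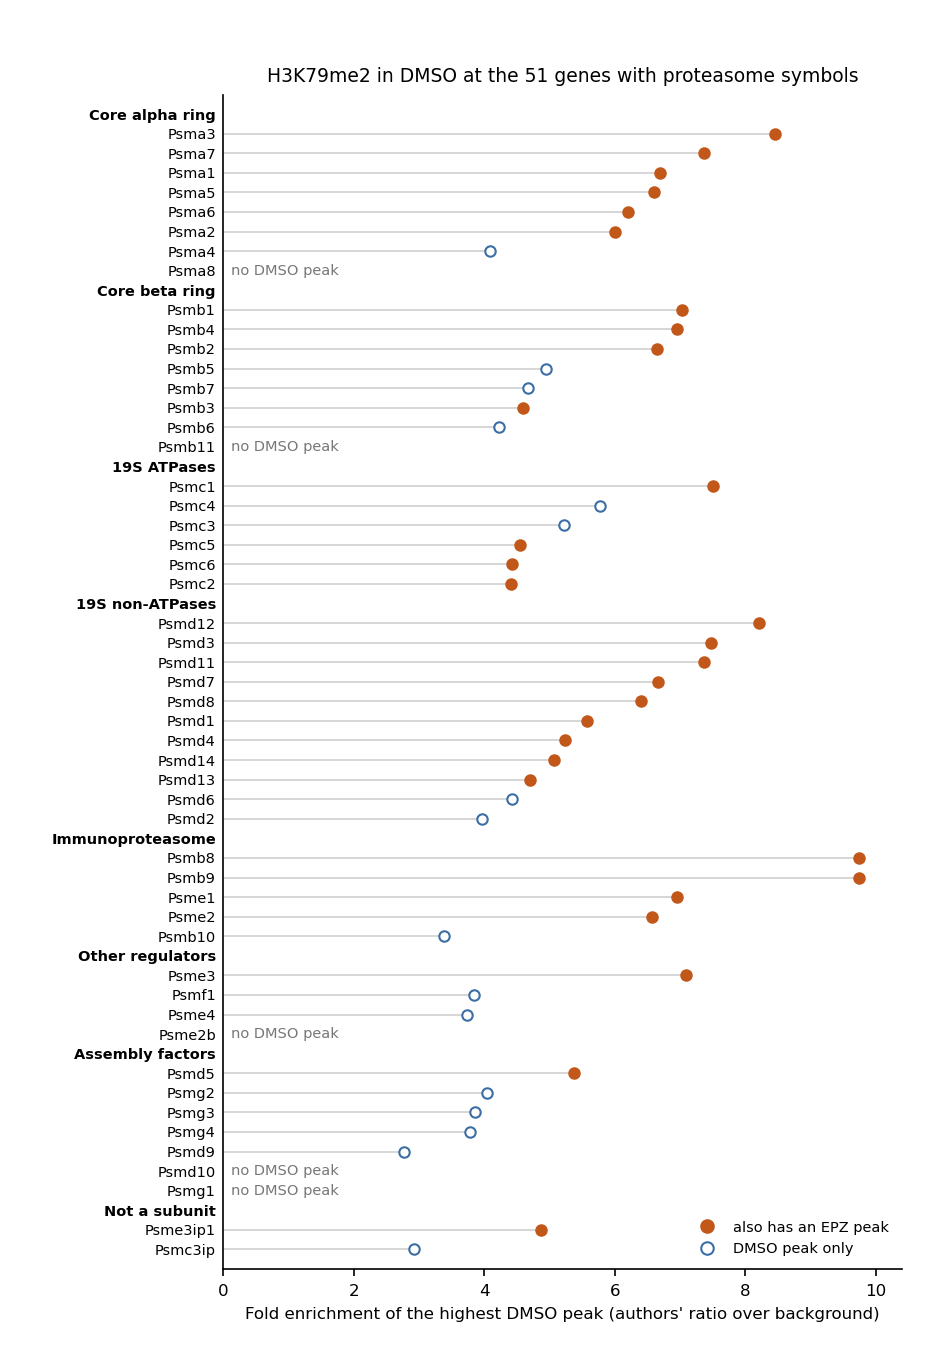
Fold enrichment of the highest DMSO peak in each gene (x axis, authors' ratio over background), grouped by role. Filled orange points are genes that also have an EPZ peak, open blue points have a DMSO peak only, and the 5 genes without a DMSO peak are written out. Filled points fill the right side of the plot, and the highest open point is Psmc4, at 5.78.

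The labelled cell type was checked against marker genes. All 7 markers chosen for CD8 T cells, among them Cd8a, Cd3e and Ptprc, were marked in EPZ and in DMSO, and 1, Ptprc, in SGC. Some of them, such as Cd3e and Ptprc, are not confined to CD8 T cells. Of 9 markers of other cells, which included Cd4, Foxp3, Lyz2 and Csf1r, 0 were marked in EPZ, 0 in SGC and 1 in DMSO. That 1 was the B cell gene Cd79a, through 0.254 kb of a peak shared with its neighbour Arhgef1. The EPZ, SGC and DMSO lists held 4443, 55 and 12578 peaks. The read depth behind them is unknown, and a gene without a peak is a gene where none was called.

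In the alpha rings, 6 of 8 genes had an EPZ peak (3 with −log10 q of at least 5) and 7 of 8 a DMSO peak, at a median DMSO fold enrichment of 6.60. Psma3 (chromosome 12, 70969283 to 70995877) was the highest, at 8.46 in the DMSO list. EPZ peaks covered 5.18 kb of Psma3, against 8.29 kb in DMSO, and its EPZ value of 8.52 stood at percentile 91.8 of that list. Psma7 followed at 7.37 in the DMSO list and Psma1 at 6.69, with 1.63 and 1.34 kb under EPZ peaks and 3.17 and 5.10 kb under DMSO peaks. Set against the DMSO-covered bases, EPZ peaks covered the most at Psma5, Psma3 and Psma6, with 65.2%, 62.4% and 58.8%. Psma1 had the lowest share of the 6, at 26.3%. Psma2, lowest of the 6 by DMSO value, had 38.6%, and its DMSO peak was shared with Mrpl32. Psma4, at 4.09 in the DMSO list over 2.60 kb, was the 1 marked alpha gene without an EPZ peak, and its DMSO peak was shared with AY074887. Psma8, the alpha subunit of the male germ line, had no peak in any list.

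In the beta rings, 4 of 8 genes had an EPZ peak (2 with −log10 q of at least 5) and 7 of 8 a DMSO peak, at a median DMSO fold enrichment of 4.95. The structural subunits Psmb1, Psmb4 and Psmb2 led with 7.03, 6.96 and 6.65 in the DMSO list. EPZ peaks covered 2.94 kb of Psmb1, 0.360 kb of Psmb4 and 4.06 kb of Psmb2, against 5.26, 1.30 and 10.6 kb in DMSO. Psmb3 also had an EPZ peak, of 0.514 kb, against a DMSO peak of 6.05 kb at 4.59-fold. The 3 genes of the standard proteolytic sites were all without an EPZ peak. These were Psmb5, whose product cuts after hydrophobic residues, at 4.95 in the DMSO list over 1.64 kb, Psmb7, of the trypsin-like site, at 4.67 over 1.21 kb, and Psmb6, of the caspase-like site, at 4.23 over 1.34 kb. All 3 were in the lowest quartile group of DMSO-covered length, where 6.93% of all marked genes had an EPZ peak. By DMSO fold enrichment, 71.6% of all marked genes in the quartile group of Psmb5 and Psmb7 had one, and 19.6% in that of Psmb6. Psmb11, the beta subunit of thymic cortical epithelium, had no peak in any list and lies 7.32 kb from Psmb5 on chromosome 14.

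Of the 3 catalytic genes of the immunoproteasome, Psmb8 and Psmb9 had an EPZ peak and Psmb10 had none, beside none at their standard counterparts. The EPZ call of Psmb9 and the DMSO calls of Psmb8 and Psmb9 rest on peaks shared with other genes and were lost when only unshared peaks counted or when each peak was given to 1 gene. Among all 5 immunoproteasome genes, 4 had an EPZ peak and 5 a DMSO peak, at a median DMSO fold enrichment of 6.96, in which the 1 peak over Psmb8 and Psmb9 counts for both. Under either of those rules 2 of the 5 had a DMSO peak. Over all protein-coding genes the DMSO share was 28.0% with unshared peaks only and 31.0% with each peak given to 1 gene. Psmb8 replaces Psmb5 in the immunoproteasome, and 3.18 kb of it lay under an EPZ peak, against 3.26 kb, its whole length, in DMSO. Psmb9 replaces Psmb6 and had 2.91 kb under an EPZ peak, against 4.34 kb in DMSO. Psmb10, which replaces Psmb7, had no EPZ peak and a DMSO peak of 3.38-fold over 2.28 kb. The subunits of the interferon-induced activator PA28, Psme1 and Psme2, lie 5.91 kb apart on chromosome 14. EPZ peaks covered 1.44 kb of Psme1 and 1.27 kb of Psme2, against 2.75 kb at 6.96-fold and 3.07 kb at 6.57-fold in DMSO, where the Psme2 peak was shared with Rnf31. All 5 are short genes, between 2.66 and 5.30 kb, and DMSO peaks covered from 81.8% to 100% of each. With 5 genes, of which Psmb8 and Psmb9 share 1 peak, these are descriptions of single loci.

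Psmb8 and Psmb9 lie in the MHC region with Tap1 and Tap2, which encode the transporter that carries peptides into the endoplasmic reticulum. In DMSO 1 peak of 27.1 kb and 9.75-fold (chromosome 17, 34182993 to 34210127) ran across Psmb9, Tap1, Psmb8 and into Tap2, so its fold enrichment cannot be given to 1 of them. With EPZ-5676 the same interval held 3 separate peaks, which together covered 66.5% of the DMSO peak. The first, of 11.4 kb and 6.40-fold, lay on Psmb9 and Tap1, the next, of 3.92 kb and 9.04-fold, covered Psmb8, and the last, of 2.70 kb and 5.35-fold, lay on Tap2. Psmb8 thus had an EPZ peak that touched no other protein-coding gene, and it kept the highest share of DMSO-covered bases of all 30 genes, at 97.5%. That share counts only bases inside the gene, which is 3.26 kb long and lies wholly within the DMSO peak of 27.1 kb.

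**Figure D2:**
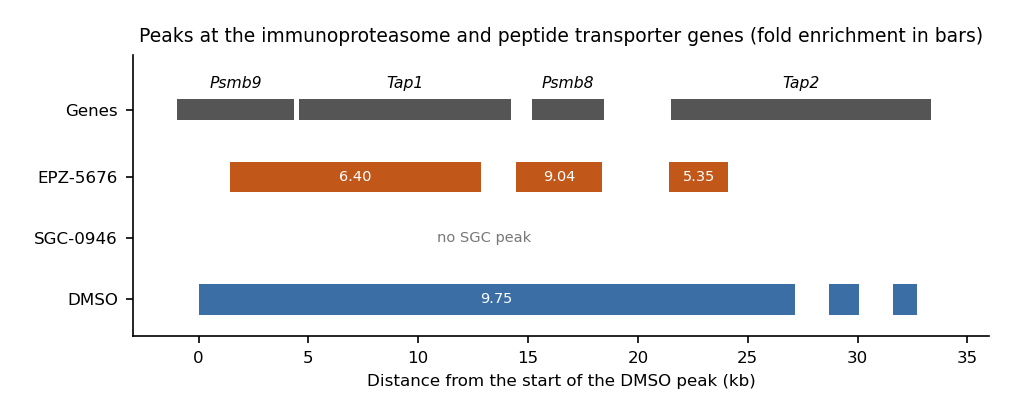
Peaks at Psmb9, Tap1, Psmb8 and Tap2, plotted by distance from the start of the DMSO peak (x axis, kb). Grey bars are genes, orange bars EPZ peaks and blue bars DMSO peaks, with the fold enrichment within each list written in the EPZ bars and the long DMSO bar. The long DMSO peak is continuous over 27.1 kb and is followed by 2 short ones in Tap2, the EPZ peaks are 3, and there is no SGC peak.

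The promoters of the catalytic pairs are shown because their peaks are the ones contrasted above, and those of Psmc1 and Psmd12 because they held the highest DMSO values of the 19S groups. Each line gives the 250 bases before the RefSeq start on GRCm38.p6, 5′ to 3′ on the gene's strand. Capitals mark matches on either strand to TGANNNNGC (antioxidant response element type, the kind that NFE2L1 binds), CCAAT (NF-Y box), GAAA repeated after NN (interferon-stimulated response element), TTCNNNGAA (gamma-activated site) or CCGGAAG (ETS factors). Psmb7 is named only.
Psmb8 (chr17:34197945-34198194, plus strand): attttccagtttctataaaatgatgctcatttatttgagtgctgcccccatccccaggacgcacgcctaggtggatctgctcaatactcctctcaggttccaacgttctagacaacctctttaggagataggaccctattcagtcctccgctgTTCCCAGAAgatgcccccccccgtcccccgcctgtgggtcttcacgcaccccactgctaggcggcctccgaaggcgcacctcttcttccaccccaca
Psmb5 (chr14:54617996-54618245, minus strand): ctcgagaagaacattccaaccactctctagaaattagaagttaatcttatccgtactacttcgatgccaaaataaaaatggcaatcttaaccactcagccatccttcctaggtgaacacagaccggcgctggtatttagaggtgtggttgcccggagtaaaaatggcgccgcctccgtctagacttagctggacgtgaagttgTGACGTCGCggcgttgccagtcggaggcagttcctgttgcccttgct
Psmb9 (chr17:34187331-34187580, minus strand): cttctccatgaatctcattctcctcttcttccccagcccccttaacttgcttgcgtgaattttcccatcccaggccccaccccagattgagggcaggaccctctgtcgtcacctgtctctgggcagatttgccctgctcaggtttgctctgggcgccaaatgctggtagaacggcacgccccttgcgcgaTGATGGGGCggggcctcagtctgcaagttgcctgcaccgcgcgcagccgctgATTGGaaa
Psmb6 (chr11:70525107-70525356, plus strand): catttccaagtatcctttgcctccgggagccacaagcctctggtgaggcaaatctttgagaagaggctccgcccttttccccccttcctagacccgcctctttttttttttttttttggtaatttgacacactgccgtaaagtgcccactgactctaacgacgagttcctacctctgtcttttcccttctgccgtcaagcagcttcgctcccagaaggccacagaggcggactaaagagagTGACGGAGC
Psmb10 (chr8:105938393-105938642, minus strand): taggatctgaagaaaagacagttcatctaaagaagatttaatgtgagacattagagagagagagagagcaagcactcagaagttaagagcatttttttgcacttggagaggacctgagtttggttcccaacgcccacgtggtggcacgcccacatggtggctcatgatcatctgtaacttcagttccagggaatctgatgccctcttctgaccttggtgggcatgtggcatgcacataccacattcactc
Psmd12 (chr11:107479278-107479527, plus strand): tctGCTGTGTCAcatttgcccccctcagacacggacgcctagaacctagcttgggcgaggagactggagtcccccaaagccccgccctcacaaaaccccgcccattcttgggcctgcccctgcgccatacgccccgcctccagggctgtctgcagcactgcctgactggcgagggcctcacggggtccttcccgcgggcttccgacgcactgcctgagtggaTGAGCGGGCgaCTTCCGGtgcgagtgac
Psmc1 (chr12:100109952-100110201, plus strand): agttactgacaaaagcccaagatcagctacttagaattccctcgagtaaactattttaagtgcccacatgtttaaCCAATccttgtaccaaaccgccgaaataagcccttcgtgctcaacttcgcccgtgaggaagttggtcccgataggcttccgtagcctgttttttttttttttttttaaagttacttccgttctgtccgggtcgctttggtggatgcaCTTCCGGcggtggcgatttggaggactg
In the stretches shown, different motifs did not overlap each other. Psmb8 held a TTCNNNGAA match that began 97 bases before the start. Psmb5, Psmb9 and Psmb6 held a TGANNNNGC match that began 47, 60 and 9 bases before it, Psmd12 held 2, which began 247 and 28 bases before it, and Psmb10 held none of the motifs. CCAAT was also found at Psmb9 and Psmc1, and CCGGAAG at Psmd12 and Psmc1. The starts of Psmb9 and Tap1, which run in opposite directions, are 226 bases apart, so the Psmb9 stretch contains the Tap1 start. At Psmb8, Psmb9 and Psmc1 both EPZ and DMSO peaks reached into these 250 bases, and at Psmd12 a DMSO peak alone did. At Psmb5, Psmb6 and Psmb10 no peak did, and the DMSO peaks began 0.044, 0.024 and 0.184 kb past the start.

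Among the 6 ATPases of the 19S regulator, which unfold the substrate, 4 had an EPZ peak and all 6 a DMSO peak, at a median DMSO fold enrichment of 4.88. The EPZ count was 1 of 6 with −log10 q of at least 5 and 2 of 6 when a peak had to cover 10% of the gene. Under those rules EPZ peaks marked 7.68% and 9.25% of all protein-coding genes. Psmc1 (chromosome 12, 100110202 to 100123364) was the highest, at 7.51 in the DMSO list, with 1.59 kb under an EPZ peak, against 2.33 kb in DMSO. Psmc4 and Psmc3 came next by DMSO value, at 5.78 and 5.22, and had no EPZ peak. Psmc5, Psmc6 and Psmc2 stood below them, at 4.54, 4.42 and 4.41, and did have EPZ peaks, over 15.4%, 53.6% and 3.49% of their DMSO-covered bases. The order of DMSO values and the presence of an EPZ peak thus crossed in this group. The DMSO peak of Psmc5, of 6.32 kb, was shared with Ftsj3. The Psmc2 peak in the DMSO list, of 12.6 kb, also covered its neighbour Dnajc2, and its EPZ peak, of 0.331 kb, held the lowest share of DMSO-covered bases of the 30 genes. Another EPZ peak, of 1.19 kb in Dnajc2, ended at -0.284 kb from the Psmc2 start.

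Of the 11 other 19S subunits, 9 had an EPZ peak and all 11 a DMSO peak, at a median DMSO fold enrichment of 5.57. The EPZ count was 1 of 11, Psmd12, with −log10 q of at least 5 and 5 of 11 when a peak had to cover 10% of the gene. The shares over all protein-coding genes under those rules were 7.68% and 9.25%. The lid subunits Psmd12, Psmd3 and Psmd11 were highest, at 8.21, 7.48 and 7.37 in the DMSO list. EPZ peaks covered 3.96 kb of Psmd12, 1.65 kb of Psmd3 and 1.90 kb of Psmd11, against 5.89, 3.79 and 6.07 kb in DMSO. Psmd7 and Psmd8 followed at 6.66 and 6.41 and kept 75.9% and 78.5% of their DMSO-covered bases under EPZ peaks, the highest shares of any 19S gene. Psmd14, which encodes the deubiquitinase of the lid, had the longest DMSO cover of all 51 genes, 15.8 kb in 4 peaks, against 3.78 kb in 1 EPZ peak. The ubiquitin receptor gene Psmd4 had 1.52 kb under an EPZ peak, against 6.87 kb in DMSO, and the scaffold gene Psmd1 had 1.21 kb, against 5.33 kb. Psmd13 had 0.462 kb under an EPZ peak, against 3.31 kb of a DMSO peak shared with Sirt3. Psmd6 of the lid and Psmd2 of the base, the lowest at 4.42 and 3.97, had no EPZ peak.

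Of the 4 remaining regulators, 1 had an EPZ peak and 3 a DMSO peak. Psme3 encodes the nuclear relative of PA28 and had an EPZ peak over 1.66 kb, against 3.37 kb in DMSO, where it stood at percentile 92.3 of the list. Its EPZ value of 7.54 stood at percentile 89.2 of the EPZ list. Psmf1, an inhibitor of the core, and Psme4, which encodes the activator PA200, had no EPZ peak, with DMSO peaks of 3.85-fold over 3.52 kb and 3.73-fold over 12.1 kb. Psme2b, for which RefSeq gives the synonym Psme2-like, had no peak in any list. Of the 7 assembly factors, 1 had an EPZ peak, near the 15.9% over all protein-coding genes, and 5 a DMSO peak, at a median DMSO fold enrichment of 3.85. With −log10 q of at least 5 those counts were 0 and 1. That 1 was Psmd5, a chaperone of the 19S base, with 1.97 kb under an EPZ peak, against 4.26 kb at 5.37-fold in DMSO. Psmg2, Psmg3 and Psmg4, chaperones of the core, had no EPZ peak and DMSO values of 4.04, 3.85 and 3.78, over 2.53, 1.17 and 1.01 kb. Psmd9, a base chaperone, had the lowest DMSO value of all, 2.76 over 0.636 kb. Psmg1, the partner of Psmg2, and Psmd10, which encodes the base chaperone gankyrin, had no peak in any list. Of the genes outside the complex, Psme3ip1, whose product binds that of Psme3, had an EPZ peak of 0.401 kb, against 9.20 kb in DMSO, and the meiotic recombination gene Psmc3ip had a DMSO peak only, of 0.528 kb.

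EPZ peaks were more frequent at genes of higher DMSO fold enrichment, among the proteasome genes and among all genes. By quartile groups of DMSO fold enrichment over all marked genes, EPZ peaks were found in 0 of 3, 2 of 11, 8 of 12 and 20 of 20 proteasome genes from the lowest quartile group to the highest. The shares over all genes in those quartile groups were 0.740%, 19.6%, 71.6% and 92.5%. By quartile groups of DMSO-covered length the proteasome genes stood further from other genes, with 2 of 10, 10 of 17, 15 of 15 and 3 of 4, against 6.93%, 34.7%, 62.0% and 80.8%. The 20 of 46 genes in the top quartile group of fold enrichment, beside 4 of 46 in the top quartile group of covered length, are the measured difference between the 2 scales.

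**Figure D3:**
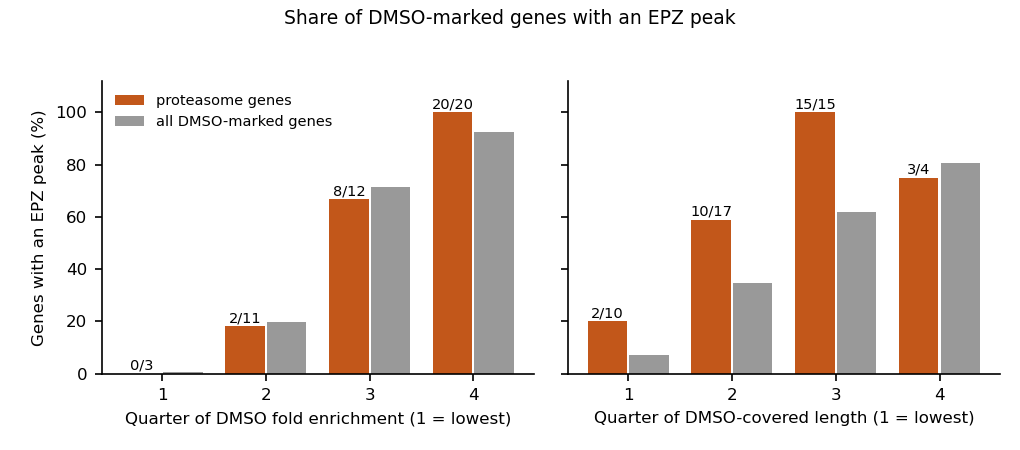
Share of DMSO-marked genes with an EPZ peak (y axis, percent) by quartile group of DMSO fold enrichment (left) and of DMSO-covered length (right), from the lowest quartile group to the highest. Orange bars are the proteasome genes, with their counts above, and grey bars all DMSO-marked protein-coding genes. On the left the bars stay close, and on the right the orange bars exceed the grey ones in the first 3 quartile groups.

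The proteasome genes are compact, with a median annotated length of 11.6 kb, against 17.1 kb for all protein-coding genes. DMSO peaks covered a median of 3.29 kb of a marked proteasome gene, against 4.10 kb over all marked genes, and a median of 31.5% of its length, against 23.7%. In the 30 genes marked in both lists, the bases under EPZ peaks came to a median of 44.9% of those under DMSO peaks, with an interquartile range of 24.5 to 61.5, against a median of 34.4% over all such genes. Summed over genes, EPZ peaks covered 63.6 kb in 30 genes, against 201.8 kb in 46 genes in DMSO. That is 31.5%, against 26.6% over all protein-coding genes. By role this summed ratio ran from 56.1% in the immunoproteasome and 48.6% in the alpha rings through 33.5% in the 19S non-ATPases, 28.7% in the beta rings and 20.5% in the assembly factors to 16.0% in the ATPases, 8.69% in the other regulators and 4.12% in Psme3ip1 and Psmc3ip. In the immunoproteasome, Psmb8 and Psmb9 supplied 3.18 and 2.91 of the 8.80 kb under EPZ peaks. They supplied 3.26 and 4.34 of the 15.7 kb under DMSO peaks, all from 1 shared peak, so its value rests largely on that locus. None of the 30 genes held more than 1 EPZ peak, and 9 of the 46 held more than 1 DMSO peak. Over all protein-coding genes, 623 of 3486 with an EPZ peak held more than 1, and 2375 of 7563 with a DMSO peak did. Across the 30 genes, DMSO fold enrichment and the ratio of EPZ-covered to DMSO-covered bases had a Spearman rho of 0.66, which was 0.71 over all 3486 genes marked in both lists, as a description of genes that share libraries and background.

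**Figure D4:**
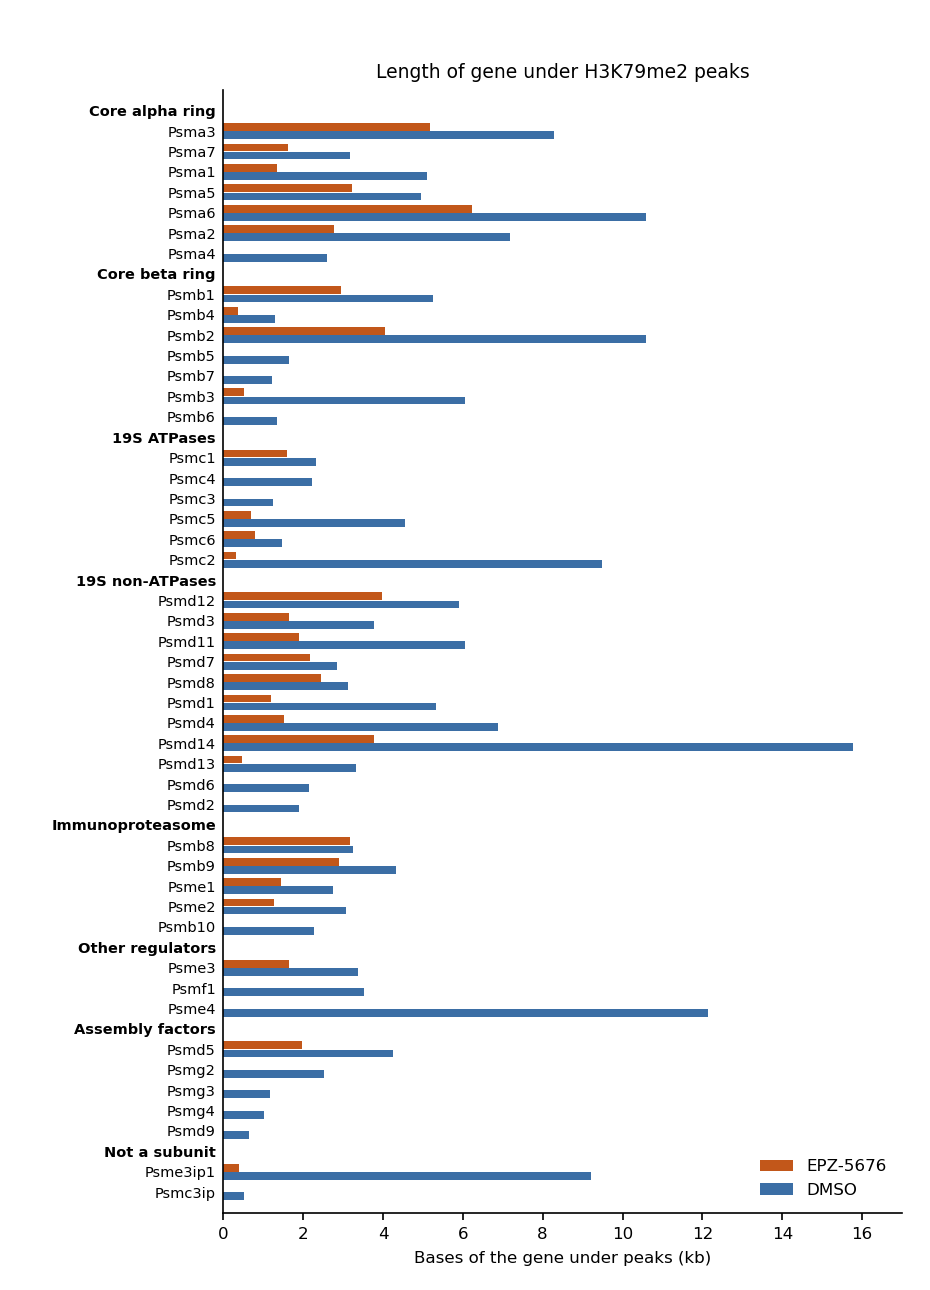
Bases of each DMSO-marked gene that lie under peaks (x axis, kb), with EPZ-5676 in orange above DMSO in blue, grouped by role. Where no orange bar is drawn the gene has no EPZ peak. Psma3, Psma6, Psmb2, Psmd12 and Psmd14 keep more than 3.7 kb, and Psmd14 and Psme4 have the longest DMSO bars.

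Strand and start were known for 43 of the 51 genes, of which 26 had an EPZ peak and 39 a DMSO peak. The EPZ peak lay wholly past the start in 22 of 26 genes, and the DMSO peak in 16 of 39. The gene's start itself lay under an EPZ peak in 4 of 26 genes (15.4%), against 23 of 39 under a DMSO peak (59.0%). Over all protein-coding genes these shares were 17.6% with EPZ-5676 and 37.9% with DMSO. The EPZ peak ran from a median of 0.189 kb to a median of 1.75 kb past the start, and the DMSO peak from a median of -0.075 kb to a median of 3.37 kb relative to it. The median far edge over all genes lay at 3.15 kb with EPZ-5676 and 4.40 kb with DMSO. The upper quartile of the far edge at proteasome genes was 3.11 kb with EPZ-5676 and 5.66 kb with DMSO, so some peaks ended beyond those medians, among them the EPZ peak of Psma3 at 5.57 kb. At Psma6 both peaks followed its second annotated start, with the EPZ peak beginning at 0.203 kb and the DMSO peak at -0.102 kb from it. The 4 genes whose start lay under an EPZ peak were Psmb8, Psmb9, Psme1 and Psmc1, and 3 of them are immunoproteasome genes. The peak at Psmb9 is shared with Tap1. The near edges at Psme1 and Psmc1 were -0.036 and -0.026 kb from the start. Those at Psma2, Psmd13 and Psme3, just past it, were 0.007, 0.013 and 0.027 kb, so this split rests on few bases.

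**Figure D5:**
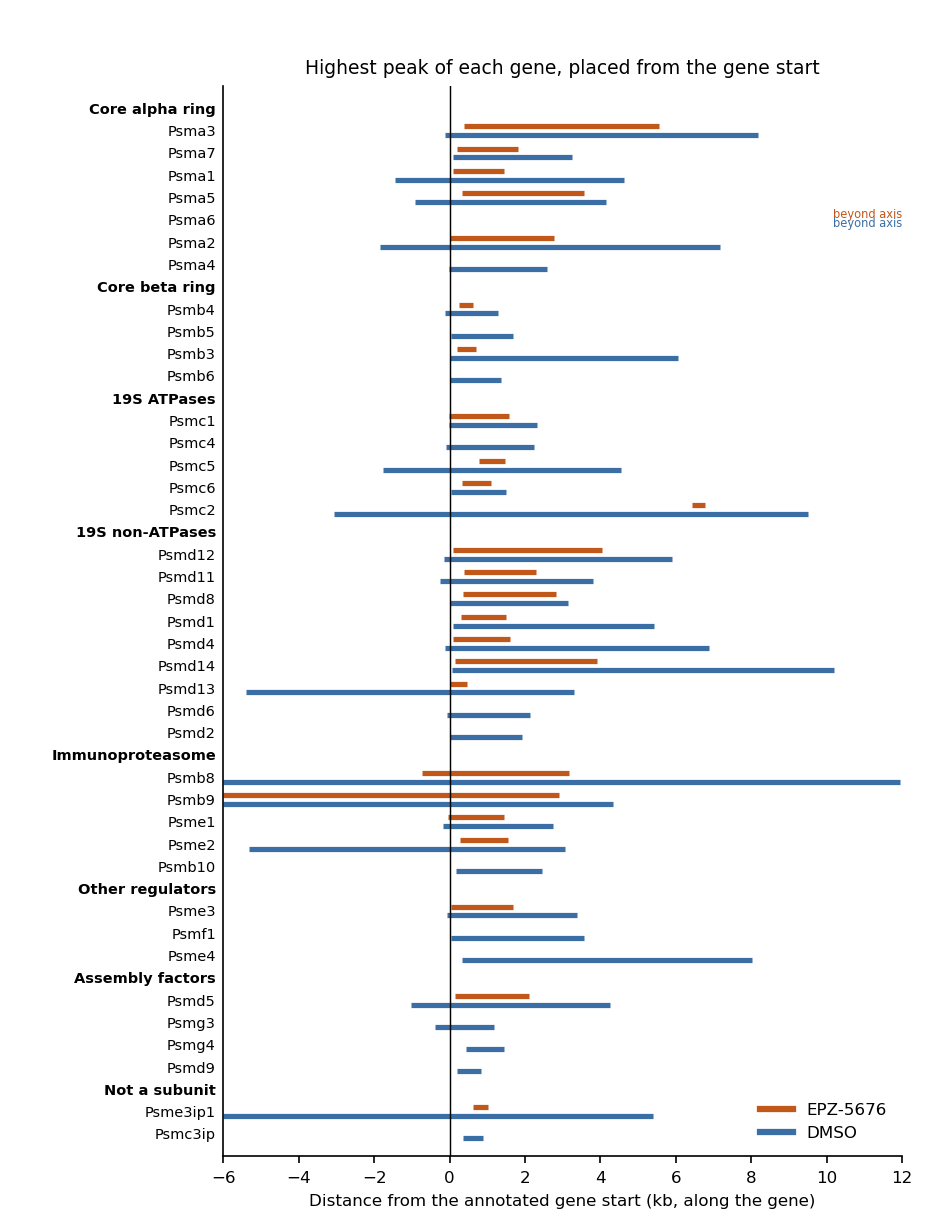
Highest peak of each gene with known strand, placed by distance from its annotated start (x axis, kb, positive along the gene), with EPZ-5676 in orange above DMSO in blue. Bars are cut at 6 kb before and 12 kb past the start, and those of Psma6 lie beyond the axis. Orange bars are mostly the shorter and begin just past the start.

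RefSeq promoter windows of 250 bases before to 50 bases after the start were searched for the same 5 motifs in those 43 genes. These genes had 47 windows, and counts are of genes with a match in any of their windows. CCGGAAG was found in 16 of 43 (37.2%), against 12.9% of protein-coding genes with a window and 25.5% of the DMSO-marked ones. It was present in 3 of 5 ATPase and 6 of 9 other 19S genes and in 0 of 5 beta ring and 0 of 5 immunoproteasome genes. TGANNNNGC was found in 25 of 43 (58.1%), against 45.5% of protein-coding genes, and in all 5 beta ring genes with a window. CCAAT was found in 16 of 43 (37.2%), against 42.3%, the interferon-stimulated response element in 5 of 43 (11.6%), against 3.94%, and TTCNNNGAA in 3 of 43 (6.98%), against 8.92%. The interferon-stimulated response element was in the windows of Psme1, Psmb3, Psmd4, Psmd9 and Psmg4, and TTCNNNGAA in those of Psmb8, Psmd2 and Psmg1. Different motifs overlapped in the windows of Psmg1 and Psmg4. A match is a run of letters in the window and was not tested as a site.

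Of 27 other genes of the proteasome pathway that could be looked up, 19 had an EPZ peak, 0 an SGC peak and all 27 a DMSO peak. The shares over all protein-coding genes were 15.9%, 0.142% and 34.5%. Among DMSO-marked genes, 70.4% of the pathway genes had an EPZ peak, against 46.1% of all. The highest by DMSO value was Zfand5, an activator of the 26S proteasome, at 10.5, and the lowest Ubqln4, a ubiquitin shuttle, at 2.88. The transcription factor gene Nfe2l1, which activates proteasome genes when the proteasome is inhibited, had no EPZ peak and a DMSO peak of 4.07-fold. Pomp, the chaperone of core maturation, had no EPZ peak and a DMSO value of 4.04, near those of Psmg2, Psmg3 and Psmg4. Zfand2a, Ube3c, Fbxo7, Ubqln2 and Ubqln4 also had no EPZ peak, at DMSO values between 2.88 and 4.75.

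With SGC-0946 none of the 51 genes and none of the 27 pathway genes had a peak, in a list of 55 peaks that marked 31 of 21900 protein-coding genes. At the same labelled dose and day, the inhibitors therefore differed by 30 called proteasome genes with EPZ-5676 and 0 with SGC-0946, and no test of that difference could be made with 1 list each. The genes of highest EPZ value, Psmb8 at 9.04 and Psma3 at 8.52, were among those without an SGC peak.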

How the data were processed

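H3K79me2 was profiled in 6 immunoprecipitated and 6 input libraries of CD8 T cells, and 3 lists of broad peaks, 1 per treatment, were used. Per the submitters' processing notes BWA (0.7.17-r1188), MACS2 (2.2.7.1) and Picard were used, with mm10 (GRCm38) as the mouse build, and the labels say that yeast chromatin was added. The sources used here do not give the peak threshold, how replicates were combined, or whether input or yeast reads entered the calls. The deposited fold enrichment is the authors' ratio over background for a peak, and each peak's −log10 q was deposited by the authors too. The score the authors deposited for each peak was not used.

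Gene intervals came from RefSeq on GRCm38.p6, and strand, starts and promoters from a RefSeq promoter table that matched 43 of 51 genes; Psma8, Psmb1, Psmb2, Psmb7, Psmc3, Psmd3, Psmd7 and Psmg2 had no entry. Exons were not analysed here. Overlaps were computed with Python 3.11.15, pandas 2.3.3 and numpy 2.4.6, and the overlap step was tested on simulated data. The lists give no depth and no replicate values, so shares are set beside the same share over all protein-coding genes, with no p-value. The motifs, role groups and the 28 pathway genes, of which Paaf1 is not analysed here, were chosen with earlier results of these data known. Full values are given for all immunoproteasome and assembly genes, for the 3 highest and 2 lowest of each other group by DMSO fold enrichment, and for genes that lack a DMSO or EPZ peak or stand at an end of the share kept, and of the pathway genes for the highest, the lowest and those without an EPZ peak, except for an item that is not reported here; further genes were added after their values were seen. The alternatives were a −log10 q of at least 5, overlaps of 500 bases or 10% of the gene, each peak given to 1 gene, intervals extended by 1 kb, windows of 1 kb around the start, and the list without Psmc3ip and Psme3ip1. For the ratio of covered bases the whole width of the peaks was also used. For DMSO fold enrichment a mean over the peaks in a gene, weighted by overlapped bases, was also used. Peaks of 1 gene only were added as an alternative after seeing the data.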

Additional observations from a re-analysis of the deposited data

How the results depend on the processing

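Requiring a −log10 q of at least 5 was the alternative that moved values over the whole set. It lowered the number of proteasome genes with an EPZ peak to 11 of 51, against 7.68% of all protein-coding genes, and those with a DMSO peak to 33, against 17.3%. The share of DMSO-marked genes with an EPZ peak fell to 33.3%, against 65.2% without it, and the median ratio of EPZ-covered to DMSO-covered bases was 60.1% in the 11 genes left. Those 11 were Psma1, Psma2, Psma3, Psmb1, Psmb2, Psmb8, Psmb9, Psmc1, Psmd12, Psme1 and Psme3. Across the other alternatives the EPZ count ran from 22 to 30 genes, the DMSO count from 38 to 46, and the SGC count stayed at 0. These were out of 51 genes, 49 without Psmc3ip and Psme3ip1, or 43 around the start, where 26 had an EPZ peak and 39 a DMSO peak. Under the same rules EPZ peaks marked 9.25% to 17.4%, SGC peaks 0.0594% to 0.155% and DMSO peaks 25.2% to 36.4% of all protein-coding genes. The EPZ share of DMSO-marked proteasome genes ran from 53.7% to 66.7%, above that of all DMSO-marked genes under the same rule (36.6% to 47.7%). By role, counts also moved by more than 1.5 times when a peak had to cover 10% of the gene. Then 2 ATPases and 5 non-ATPases kept an EPZ peak and 3 assembly factors a DMSO peak. Over all protein-coding genes EPZ peaks marked 9.25% and DMSO peaks 25.2% under that rule. Counts by role also moved within 1 kb of the start because fewer genes have a known strand. There 2 of 5 beta ring genes had an EPZ peak and 4 a DMSO peak. The shares over all protein-coding genes with known strand were 15.2% and 33.8%. With the whole width of the peaks in place of the bases inside the gene, the median ratio of EPZ to DMSO bases was 37.3%, against 44.9%. The median DMSO fold enrichment stayed at 5.30 as a weighted mean over peaks. An overlap of at least 500 bases removed the EPZ calls of Psmb4, Psmc2, Psmd13 and Psme3ip1. Giving each peak to the gene it overlaps most removed the DMSO calls of Psmb8, Psmb9, Psmd13 and Psme2, and for Psmb9 the EPZ call too. No paired analysis was possible because the lists hold no values per replicate, and for the same reason no replicate was left out. Depth is unknown, so calls near the threshold, such as EPZ at Psmd13 and Psmd1 with −log10 q of 1.72 and 1.82, are the least certain.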

Other observations

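Among the proteasome genes with a promoter window, CCAAT was found in 13 of 26 with an EPZ peak (50.0%) and in 1 of 13 marked in DMSO alone (7.69%), which was Psmc3ip. Over all DMSO-marked genes the shares were 42.7% with an EPZ peak and 43.5% without. The split was seen after the data were searched and was not tested. Of 6 pseudogenes with proteasome symbols, 0 had an EPZ peak and 1, Psmb7-ps1 on chromosome X, had a DMSO peak. The share over all pseudogenes is not given here, so these counts have no background to be read against.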
